A study of Mus musculus with 11 samples.

Results

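The microtubule-associated protein tau is made from Mapt, and the enzymes that phosphorylate it include GSK3, CDK5, the MARK kinases, FYN, DYRK1A and TTBK1. The mouse genes for these proteins (Mapt, Gsk3b, Gsk3a, Cdk5, Cdk5r1, Mark1, Mark2, Fyn, Dyrk1a and Ttbk1) were taken by symbol, and all 10 were present among the 31053 genes counted. Their levels were measured by droplet-based single-nuclei RNA-seq in frozen cortical tissue of 11 mice, with 1 library per mouse. Nuclei, rather than whole cells, were sequenced, so the counts describe RNA in the nucleus, unspliced transcripts included, and say nothing about tau protein or its phosphorylation.

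Tau binds microtubules in axons and is released from them when it is phosphorylated at many sites. The proline-directed kinases GSK3 and CDK5 act at serine or threonine followed by proline, and CDK5 works only with an activating subunit such as p35, the product of Cdk5r1. The MARK kinases act in the microtubule-binding repeats, FYN acts on tyrosine, DYRK1A primes tau for GSK3, and TTBK1 is a tau kinase known from neurons. Mature oligodendrocytes also make tau, which supports transport in their processes, and FYN is a known partner of tau there.

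The comparison had 4 groups, all Ikbkb or IkbkbCA floxed and all given tamoxifen. The 4 non-transgenic mice (Ikbkb+/+) and the 3 P301S mice (Ikbkb+/+;P301S+) had no Cre. The 2 knockout P301S mice (Ikbkb-/-;P301S+) and the 2 active IKKb P301S mice (IkbkbCA;P301S+) carried Cx3cr1 CreERT2 on 1 allele, which deletes Ikbkb, the IKKb kinase of the NF-kB pathway, or switches on an always-active IKKb in microglia. Since Cre stood only in these groups, the effect of losing 1 Cx3cr1 allele cannot be told apart from that of the Ikbkb allele. P301S mice express mutant human tau from the mouse prion promoter (the PS19 line). Human tau is not among the genes counted, and whether any reads of the transgene were counted as mouse Mapt was not tested. The mice were 8.39 to 10.85 months old, the knockout mice 8.39 and 9.15, and some of 1 line shared an age across groups. All were labelled female, although the methods of the study name males for its RNA-seq. In these nuclei Xist, the RNA of the inactive X chromosome, stood at 795 to 1498 counts per 1000000 (CPM) in the 11 mice, and 4 Y-linked genes (Ddx3y, Uty, Eif2s3y and Kdm5d) summed to 1.09 to 1.71 CPM. Knockout mice came from the floxed Ikbkb line and active IKKb mice from the other line, while both kinds of control came from both.

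The libraries held 72007219 to 93205362 UMIs (unique molecular identifiers, each a counted RNA molecule), and 103065 nuclei were used. The median UMIs per nucleus ran from 4844 to 8659 per mouse. Barcode sequences shared by any 2 libraries numbered 15 to 45. Nuclei fell into 10 broad types and 16 neuronal subtypes. The broad types and 11 of the subtypes are named "-like" from marker genes (the suffix is mostly dropped hereafter), the other 5 subtypes are unnamed clusters of excitatory or inhibitory neurons, and a shallow, mitochondrial-gene-led group of 6105 nuclei was left unnamed and unused. Although the tissue was labelled as cortex, every mouse gave striatal projection neuron-like nuclei (386 to 1560). The fibroblast-like type was mixed, with the choroid plexus marker Ttr among its leading genes. At a clustering resolution of 0.2, a cluster of 240 ependymal or choroid plexus-like nuclei stood beside 967 fibroblast-like nuclei. In excitatory neuron-like nuclei, Prn, which spans the prion gene, stood at 0.658 to 0.958 CPM in the 4 non-transgenic mice and at 1.86 to 4.06 CPM in the 7 P301S mice of all kinds, without overlap. Prn was chosen after its values were seen. Prnp, the prion gene itself, lay at 0.0851 to 0.304 CPM in all mice, on 4 to 12 UMIs each, and checks nothing. Ikbkb in microglia-like nuclei ran from 124 to 154 CPM in the non-transgenic and from 132 to 152 in the P301S group, and was 109 and 113 in the knockout and 149.95 and 164 in the active IKKb group, while the deletion removes only part of the gene.

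Mapt was highest by CPM in oligodendrocyte-like nuclei, where its lowest mouse had 1636 CPM, the median 1945 and the highest 2081. Excitatory neuron-like nuclei followed, with 483, 565 and 647 CPM, and inhibitory neuron-like nuclei with 418, 488 and 593 CPM. These steps had the same direction in all 11 mice. Mapt lies on chromosome 11 (GRCm38, 104231390 to 104332090, plus strand), and the gene Gm11659 overlaps it on the opposite strand. Oligodendrocyte precursor-like nuclei averaged 437 ± 53.9 CPM (SD, n = 11 mice), striatal projection neuron-like nuclei 343 ± 39.5 CPM and astrocyte-like nuclei 313 ± 33.3 CPM. Precursors were above striatal projection neurons in every mouse, but inhibitory neurons and precursors, and striatal projection neurons and astrocytes, were not in 1 order in all mice. With free neuronal RNA, estimated from 20 neuronal genes, taken off, 321 of the 437 CPM were left in precursors. Levels with free RNA taken off, here and below, are what is left of the counted CPM, not rescaled to the UMIs left. They are therefore not set against types left as counted. Endothelial-like (179 ± 108 CPM), pericyte or mural-like (119 ± 58.1 CPM), microglia-like (91.9 ± 20.4 CPM) and fibroblast-like nuclei (70.8 ± 30.5 CPM) came last. Of the 45 pairs of types, 36 had the same order of Mapt in all 11 mice.

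The place of oligodendrocytes turned with the scale. CPM divides by all UMIs of a type, and oligodendrocyte-like nuclei held a mean of 2488 UMIs each against 11612 in excitatory neuron-like nuclei. Per nucleus, excitatory neuron-like nuclei held 6.54 ± 1.28 Mapt UMIs and oligodendrocyte-like nuclei 4.72 ± 0.967. The ratio of oligodendrocytes to excitatory neurons within a mouse had a median of 3.32 by CPM (3.08 to 3.56, above 1 in 11 of 11 mice) and of 0.720 by UMIs per nucleus (0.649 to 0.814, above 1 in 0 of 11 mice). Per nucleus, oligodendrocytes were above striatal projection neurons (3.27) in all 11 mice, while inhibitory neurons (4.17) were under oligodendrocytes in 9 of 11 mice and above striatal projection neurons in 9 of 11.

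**Figure D1:**
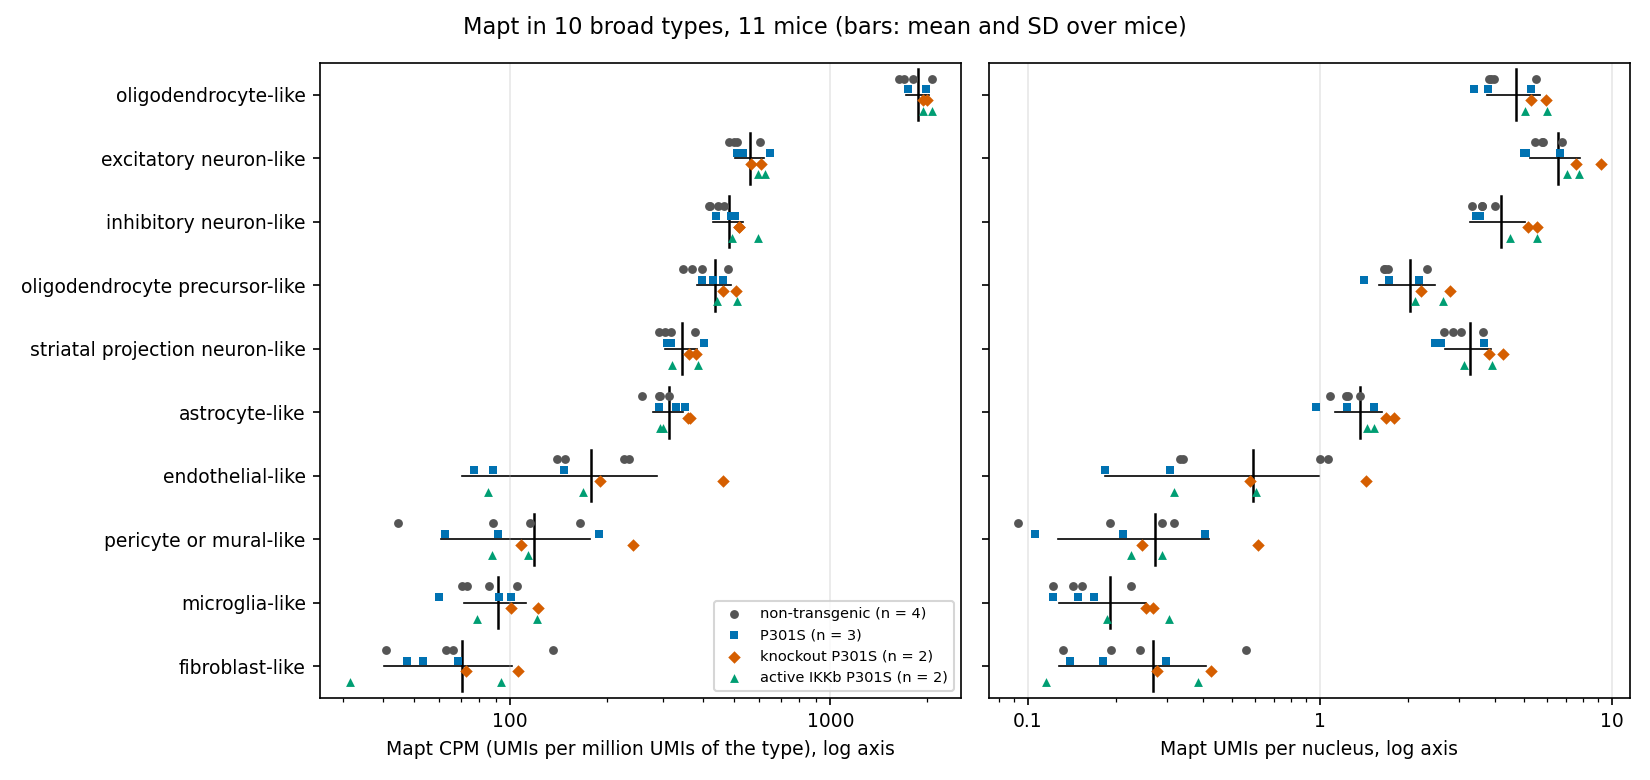
Mapt in 10 cell types, as CPM (log axis) and as UMIs per nucleus (log axis), with 1 point per mouse coloured by group and a bar at the mean of 11 mice. Oligodendrocyte-like nuclei lead by CPM (mean 1881) and excitatory neuron-like nuclei lead per nucleus (mean 6.54).

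Among the proline-directed kinases, Gsk3b, which encodes GSK3 beta, was lowest by CPM as counted in excitatory neurons. It averaged 186 ± 10.3 CPM there, 207 ± 9.59 in oligodendrocytes, 233 ± 12.2 in inhibitory neurons, 286 ± 22.8 in striatal projection neurons and 309 ± 25.0 in astrocytes (SD, n = 11 mice). The steps from excitatory neurons to oligodendrocytes and from oligodendrocytes to inhibitory neurons held in every mouse. With free neuronal RNA, estimated from 20 neuronal genes, taken off, 161 of the 207 CPM were left in oligodendrocytes. This remainder was not rescaled to the UMIs left, so it is not set against excitatory neurons. Per nucleus the place of excitatory neurons turned, since they held 2.15 ± 0.240 Gsk3b UMIs, second to striatal projection neurons (2.72 ± 0.333), and oligodendrocytes held the fewest (0.516 ± 0.0728). Gsk3a, which encodes the alpha enzyme, was sparse and even, between 12.9 ± 1.66 CPM in excitatory neurons and 22.1 ± 8.43 CPM in fibroblasts, and only 2 of 45 pairs of types had 1 order in all mice. Per nucleus its highest mean was that of excitatory neurons (0.152 UMIs).

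Cdk5 shared with Mapt its highest level by CPM in oligodendrocytes. There it ran from 39.7 to 59.3 CPM with a median of 47.3, on 120 to 310 UMIs per mouse, against 15.01 to 22.4 CPM in excitatory neurons. No mouse overlapped between these types, and the ratio within a mouse was 2.65 (2.36 to 2.97). Per nucleus this order too was the other way, at 0.122 ± 0.0272 UMIs against 0.216 ± 0.0513. Its activator Cdk5r1 went in the other direction by CPM, with 23.7 ± 2.91 in excitatory neurons, 19.6 ± 3.62 in striatal projection neurons, 18.8 ± 2.96 in inhibitory neurons and 9.89 ± 1.14 in oligodendrocytes (4.03 with free neuronal RNA, estimated from 20 neuronal genes, taken off). Microglia-like nuclei had a mean of 26.1 ± 10.2 CPM of Cdk5r1, above excitatory neurons in only 6 of 11 mice. With free neuronal RNA taken off, 19.2 of the 26.1 CPM were left in microglia. This remainder was not rescaled to the UMIs left, so it is not set against excitatory neurons. As counted, the microglial mean was 37.4 CPM in non-transgenic and 25.5 in knockout mice, above excitatory neurons (23.5 and 22.6). It was 16.9 in P301S and 17.6 in active IKKb mice, under excitatory neurons (23.9 and 24.6). Per nucleus microglia held 0.0531 Cdk5r1 UMIs against 0.275 in excitatory neurons. By CPM, Dyrk1a was lower in neurons (142 ± 7.52 CPM in excitatory, 171 ± 11.6 in inhibitory and 134 ± 7.65 in striatal projection neurons) than in oligodendrocytes (222 ± 11.8 CPM), which exceeded inhibitory neurons in all 11 mice. Per nucleus Dyrk1a was highest in excitatory neurons (1.64 ± 0.203 UMIs), and the ratio of oligodendrocytes to them had a median of 0.320, above 1 in 0 of 11 mice.

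By CPM, the MARK genes differed from each other in where they peaked. Mark1 was highest in pericyte or mural-like nuclei, at 344 ± 57.5 CPM, where the lowest mouse (268 CPM, 30 UMIs) was above the highest striatal projection neuron value (232 CPM). Striatal projection neurons followed with 208 ± 12.3 CPM, excitatory neurons with 154 ± 8.39 and inhibitory neurons with 120 ± 6.29, while oligodendrocytes had 53.1 ± 8.29 (14.9 with free neuronal RNA taken off). Mark2 spanned less, from 151 ± 13.7 CPM in inhibitory neurons to 293 ± 21.9 CPM in striatal projection neurons. Microglia held 277 ± 27.2 CPM of Mark2, above excitatory neurons (228 ± 17.7) in every mouse. With free neuronal RNA taken off, 210 of the 277 CPM of Mark2 were left in microglia. This remainder was not rescaled to the UMIs left, so it is not set against excitatory neurons. Per nucleus both genes had their highest mean in striatal projection neurons (1.97 ± 0.229 UMIs of Mark1 and 2.79 ± 0.391 of Mark2). On that scale the ratio of pericytes to striatal projection neurons had a median of 0.418 for Mark1 and that of microglia to excitatory neurons 0.218 for Mark2, each above 1 in 0 of 11 mice.

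Fyn was highest by CPM in oligodendrocyte precursors, with 429 CPM in the lowest mouse, 564 in the median mouse and 710 in the highest. Inhibitory neurons had 269 ± 36.2 CPM, astrocytes 235 ± 14.2 CPM, excitatory neurons 178 ± 11.9 CPM and mature oligodendrocytes 138 ± 8.91 CPM. Precursors were above inhibitory neurons, and these above astrocytes, in all 11 mice. Per nucleus the precursors had the highest mean (2.60 ± 0.687 UMIs), but the ratio to inhibitory neurons had a median of 1.09 (0.871 to 1.45) and was above 1 in only 7 of 11 mice. By CPM, Fyn had its top level in precursors and Mapt in mature oligodendrocytes.

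Ttbk1 had its highest means by CPM in inhibitory (83.4 ± 13.1) and excitatory neurons (72.6 ± 12.1), with 57.6 ± 10.95 in striatal projection neurons. Oligodendrocytes (59.6 ± 10.7 CPM) and their precursors (54.0 ± 11.05 CPM) were near these values by CPM (0.151 and 0.255 UMIs per nucleus, against 0.851 in excitatory neurons), and precursors were above astrocytes (20.2 ± 4.90 CPM, or 8.71 with free neuronal RNA taken off) in every mouse. Microglia, pericytes, endothelial cells and fibroblasts had means of 12.45 to 18.2 CPM, and of -6.00 to -0.96 CPM with free neuronal RNA taken off.

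**Figure D2:**
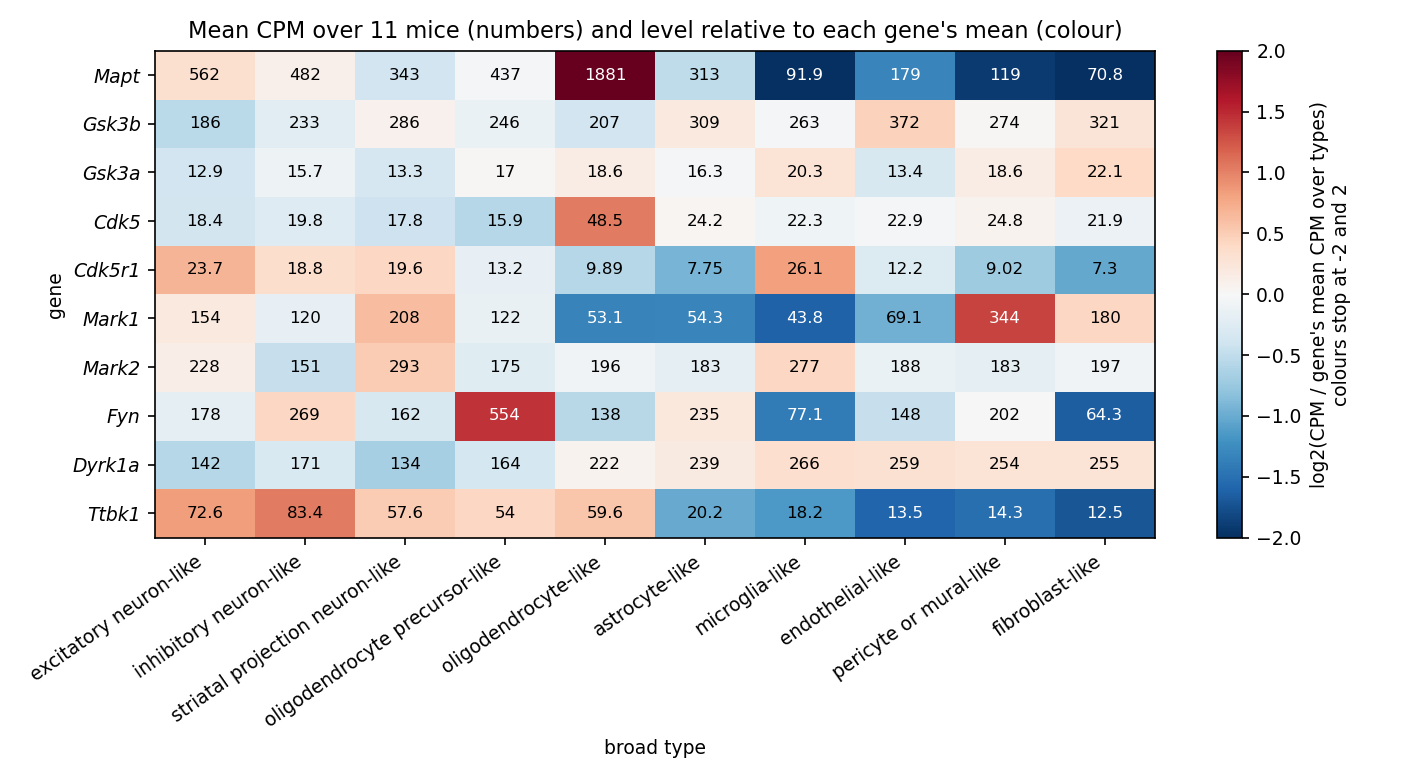
Mean CPM of each member (n = 11 mice) in 10 broad types, coloured by log2 of the level over that gene's mean across types, with the CPM printed in each cell. By CPM, Mapt and Cdk5 peak in oligodendrocytes (1881 and 48.5 CPM), Fyn in precursors (554 CPM) and Mark1 in pericytes (344 CPM).

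Levels of different genes were compared per kilobase of gene span, since long genes catch more reads from unspliced RNA. In excitatory neurons, Cdk5r1 (5.69 CPM per kb) and Mapt (5.58) led, Cdk5 (3.48) and Mark2 (3.42) followed, and Ttbk1, Mark1, Gsk3a, Gsk3b, Dyrk1a and Fyn lay between 0.906 and 1.60. Mapt in oligodendrocytes had 18.7 CPM per kb. The gene spans run from 4.162 kb for Cdk5r1 to 196.527 kb for Fyn. Whether UMIs rise in proportion to span in these 3′ libraries was not tested, so this order is bound to the scale. Undivided, non-transgenic mice averaged 524 CPM of Mapt and 23.5 CPM of Cdk5r1 in excitatory neurons.

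Promoter windows are shown for 3 kinases with contrasting profiles: Ttbk1 (low outside neurons and the oligodendrocyte lineage), Fyn (highest in precursors) and Gsk3b (lowest in excitatory neurons). These profiles are by CPM as counted, free RNA included. Each is the 250 bases before the RefSeq gene start in GRCm38.p6, written 5′ to 3′ on the gene's strand, at chr17:46487676-46487925 (minus), chr10:39369549-39369798 (plus, inside the longer span annotated for Fyn) and chr16:38088751-38089000 (plus). Capitals mark 3 promoter motifs on either strand: the GC box, spelled GGGCGG, which binds SP1-type factors; the CCAAT box, searched by those 5 letters; and the TATA box, searched as TATAAA.
Ttbk1: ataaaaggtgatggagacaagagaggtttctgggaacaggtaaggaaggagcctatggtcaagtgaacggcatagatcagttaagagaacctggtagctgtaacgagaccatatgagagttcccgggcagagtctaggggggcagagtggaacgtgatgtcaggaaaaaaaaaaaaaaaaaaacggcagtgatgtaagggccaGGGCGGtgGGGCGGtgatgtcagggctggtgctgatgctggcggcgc
Fyn: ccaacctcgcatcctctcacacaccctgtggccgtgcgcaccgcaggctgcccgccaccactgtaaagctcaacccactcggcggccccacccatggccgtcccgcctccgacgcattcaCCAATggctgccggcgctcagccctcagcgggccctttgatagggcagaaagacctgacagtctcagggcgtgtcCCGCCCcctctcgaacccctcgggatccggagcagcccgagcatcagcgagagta
Gsk3b: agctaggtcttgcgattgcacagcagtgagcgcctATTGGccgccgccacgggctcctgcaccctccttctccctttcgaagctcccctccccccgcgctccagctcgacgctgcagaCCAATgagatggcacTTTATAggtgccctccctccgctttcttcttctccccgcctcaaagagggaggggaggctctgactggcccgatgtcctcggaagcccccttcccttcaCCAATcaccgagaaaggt
Ttbk1 held 2 GC boxes, Fyn 1 GC box and 1 CCAAT box, and Gsk3b 3 CCAAT boxes and 1 match to the TATA letters. That match reads TTTATA on the strand shown, and its distance to the start was not weighed. Among 32851 promoters of the same length, 32.7% held at least 1 GC box, 33.8% at least 1 CCAAT box and 12.4% at least 1 TATA match, on either strand. Holding 1 of these motifs is therefore not rare, and the share with 2 or 3 copies was not counted. The promoter table matched 7 members, and Mapt, Cdk5 and Cdk5r1 were not among them.

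Between neuronal subtypes, the range of Mapt was narrow by CPM. Subtypes differed in depth, from a mean of 7643 UMIs per nucleus in Vip inhibitory-like to 15486 in layer 5 extratelencephalic-like nuclei. Their levels per nucleus are not given here. Its means ran from 403 ± 48.6 CPM in near-projecting excitatory-like nuclei to 615 ± 70.2 CPM in layer 4 and 5 excitatory-like nuclei, a ratio of 1.53 over 16 subtypes. Upper-layer nuclei (599.98 ± 69.1 CPM) were close to the latter, layer 5 extratelencephalic (458 ± 52.3 CPM) and layer 6b nuclei (461 ± 44.9 CPM) were lower, and Pvalb inhibitory nuclei had 433 ± 34.8 CPM. No 2 neighbours in this order were separate in all 11 mice, although 69 of 120 pairs of subtypes were.

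By CPM, the range over subtypes was wider for Fyn (a ratio of 2.47 between highest and lowest mean), Mark1 (2.52) and Mark2 (2.20). Of 120 pairs, 83, 69 and 75 were in 1 order in all mice. Fyn ran from 125 ± 8.16 CPM in layer 6 corticothalamic-like to 308 ± 27.1 CPM in Vip inhibitory-like nuclei. Mark2 was lowest in Pvalb inhibitory-like (112 ± 14.1 CPM) and highest in layer 6 corticothalamic-like nuclei (246 ± 22.6 CPM). Mark1 was lowest in claustrum-like nuclei (75.0 ± 10.0 CPM), below Vip inhibitory-like nuclei (102 ± 12.4 CPM) in every mouse, and reached 189 ± 12.4 CPM in an unnamed excitatory cluster. Layer 6 corticothalamic-like nuclei held, by their means, the least Fyn and the most Mark2 of the 16. The subtypes separated less by Gsk3b (169.5 to 244.5 CPM), Dyrk1a (125 to 181 CPM) and Ttbk1 (65.8 to 91.3 CPM), and hardly by Cdk5 and Gsk3a, whose pairs in 1 order numbered 8 and 7 of 120. Cdk5r1 had a ratio of 1.87 (14.9 to 27.8 CPM), but only 19 of 120 pairs in 1 order.

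**Figure D3:**
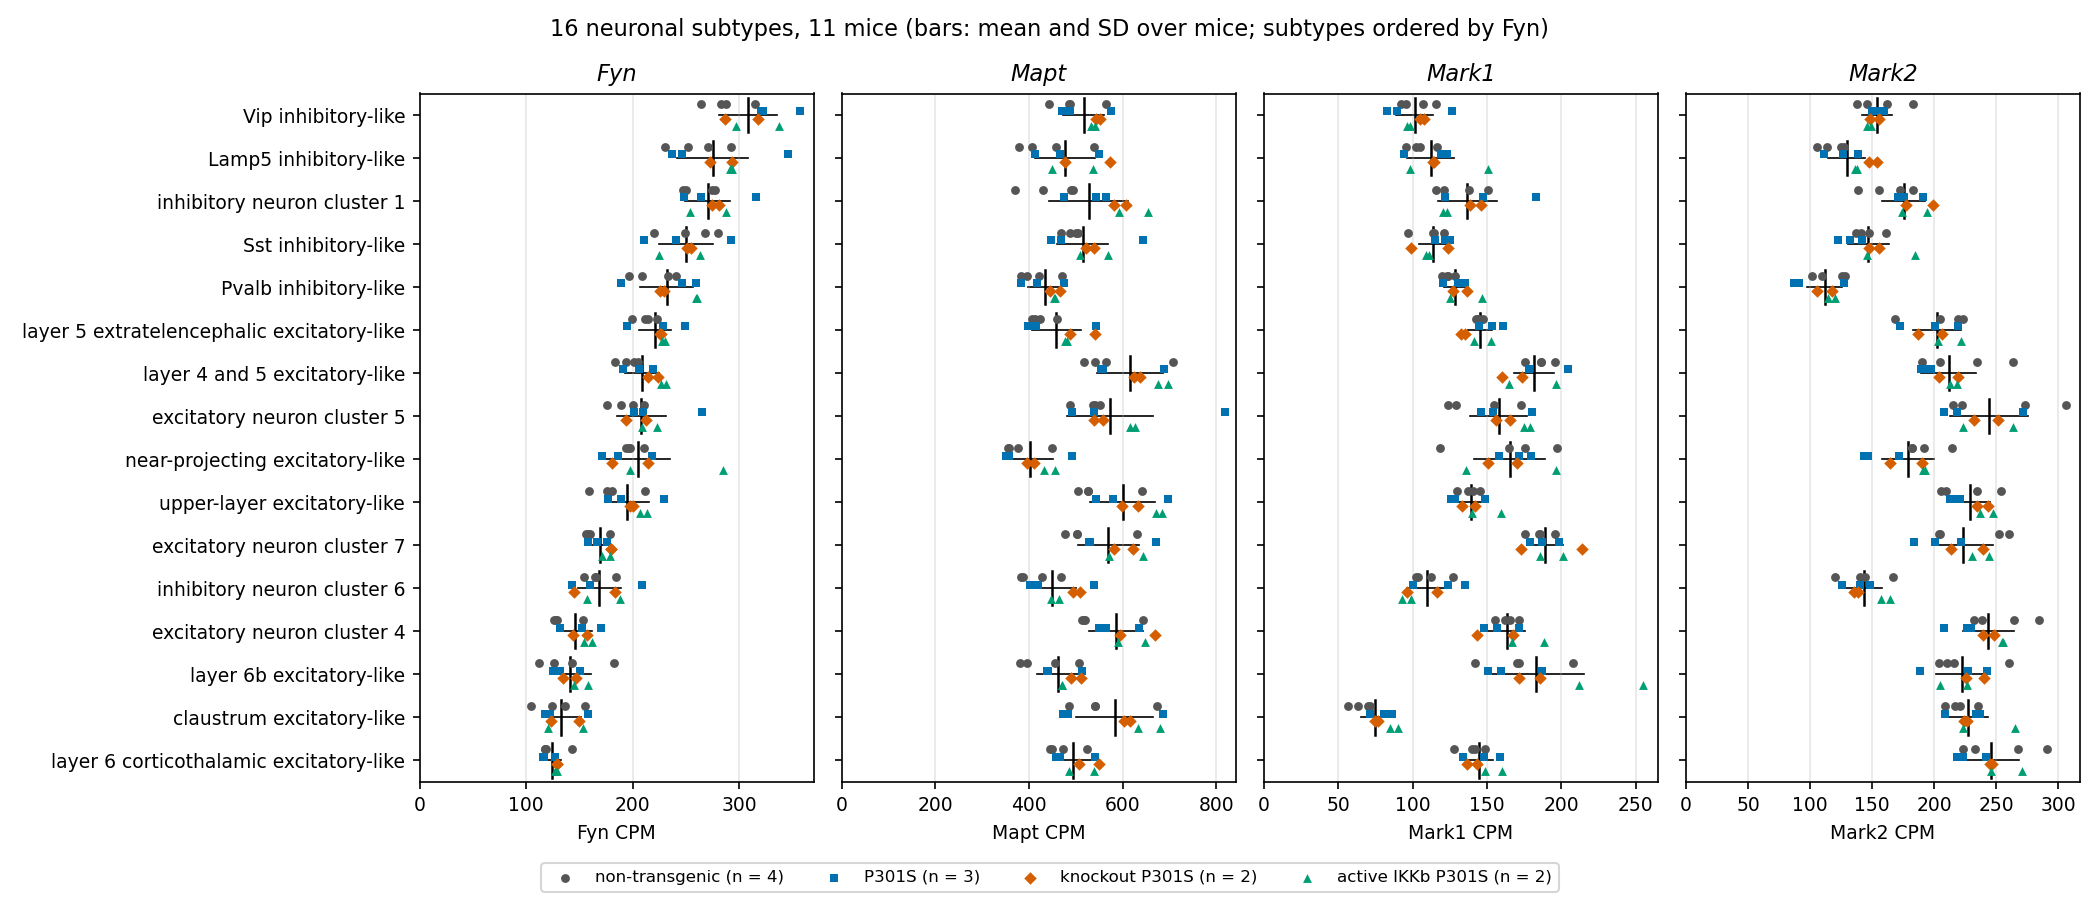
Mapt, Fyn, Mark1 and Mark2 in 16 neuronal subtypes (CPM), with 1 point per mouse coloured by group and lines at the mean and SD of 11 mice, ordered by Fyn. Fyn rises from 125 to 308 CPM across the subtypes, while Mapt stays between 403 and 615 CPM.

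Free RNA from broken neurons gives neuronal UMIs in other nuclei, so glial and vascular levels were set beside 20 neuronal genes such as Snap25 and Slc17a7. In microglia-like nuclei these genes stood at a median of 29.1% of their excitatory level (24.0% to 35.9% over mice) and ranged from 5.003% for Rbfox3 to 73.3% for Atp2b1. Mapt stood at 16.8% (9.24% to 21.7%), under the median of the list in 11 of 11 mice and above 3 of its 20 genes. In pericytes (18.1% against 26.5%) and fibroblasts (12.6% against 17.8%) Mapt was also under the median of the list, and above it in 3 and 1 of 11 mice. Expression of Mapt is therefore not read from its values in these 3 types, though free RNA estimated from Rbfox3 alone would leave 60.8 of the 91.9 CPM in microglia. In oligodendrocytes (332% against 24.4%), precursors (79.5% against 21.0%) and astrocytes (57.1% against 15.04%), Mapt was above every gene of the list. Endothelial nuclei, with 7 to 49 Mapt UMIs per mouse, were near the list (28.9% against 26.2%).

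The same comparison split the kinases. Ttbk1 in microglia, pericytes, fibroblasts and endothelial cells (16.3% to 23.0% of its excitatory level) was below the median of the list but above 3 to 7 of its 20 genes, and Mark1 in microglia (28.5%) was above it in only 4 of 11 mice. Cdk5r1 in microglia was at 113% of its excitatory level and above the median of the list in 11 of 11 mice. So were Gsk3b (139%), Gsk3a (155%), Cdk5 (122%), Mark2 (121%) and Dyrk1a (182%). Fyn in microglia (45.7%) was above that median in 10 mice, and above 16 of the 20 list genes.

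Whether genotype altered these genes was tested on UMIs summed per mouse and type (edgeR quasi-likelihood test, Benjamini-Hochberg adjustment over all genes of a type, called at an adjusted p under 0.05 and a log2 fold change over 0.1 in size). In the comparison of P301S with non-transgenic mice, 0 of 84 tests of members in 9 broad types were called, beside 0.0165% of all 102881 gene tests. Knockout P301S against P301S mice gave 0 of 84 beside 0%, and active IKKb P301S against P301S mice gave 0 of 84 beside 0.136%. The mean of the 3 P301S groups against non-transgenic mice gave 0 of 84 beside 0.0496%. In all 4 comparisons DESeq2 also called 0 members. Fibroblasts passed 8 members and pericytes 6 through the low-count filter, the other types all 10, and endothelial nuclei were too few to test.

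At an unadjusted p under 0.05 there were 5, 11, 2 and 5 member tests of 84 in these comparisons, or 5.95%, 13.1%, 2.38% and 5.95%, where all genes gave 4.32%, 8.60%, 5.83% and 5.57%. In the 16 subtypes 0 of 160 member tests were called in any comparison, beside 0.0122%, 0%, 0.00232% and 0.0249% of 172444 gene tests, and 3, 10, 2 and 3 (1.88%, 6.25%, 1.25% and 1.88%) had an unadjusted p under 0.05, where all genes gave 3.55%, 6.11%, 5.81% and 5.50%. With so few calls among all genes, a count of 0 among the members is near the background. The comparisons that use the P301S mice share those mice, and their values are not independent.

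For Mapt itself the groups overlapped in most types. In excitatory neurons the non-transgenic mice had 483, 499, 511 and 602 CPM, the P301S mice 510, 532 and 647, the knockout mice 565 and 608, and the active IKKb mice 594 and 627. The highest non-transgenic and the highest P301S value came from the mice with the fewest median UMIs per nucleus of their groups (5634 and 4844), and the part of depth in this was not tested. The log2 fold change was 0.06 ± 0.09 (SE, 95% interval -0.14 to 0.25) for P301S, 0.09 ± 0.10 for knockout, 0.12 ± 0.10 for active IKKb and 0.13 ± 0.07 (-0.03 to 0.28) for all P301S mice. A rise of Mapt by more than 0.28 in excitatory neurons of all P301S mice lay outside that interval.

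In inhibitory neurons the 4 groups had 418 to 467, 439 to 502, 517 and 518, and 494 and 593 CPM of Mapt. The make-up of this type differed between mice, with 35 to 1075 nuclei per mouse in unnamed inhibitory cluster 1, and its part was not tested. All P301S mice against non-transgenic mice gave 0.15 ± 0.06 with an adjusted p of 0.552, and P301S, knockout and active IKKb gave 0.05, 0.14 and 0.15. The effect in excitatory minus that in inhibitory neurons was 0.01, -0.05, -0.04 and -0.02 in the 4 comparisons (limma, adjusted p of at least 0.976), and no member (0 of 10) differed between these types in any. Among members the lowest p of that test belonged to Cdk5r1 for knockout (0.19, adjusted p of 0.9998).

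Oligodendrocytes of non-transgenic mice had 1697, 1636, 1816 and 2073 CPM of Mapt, against 1751, 1753 and 1991 in P301S mice, 1948 and 2002 in knockout mice and 1945 and 2081 in active IKKb mice. All groups overlapped the non-transgenic range, and the log2 fold changes were 0.01 ± 0.08, 0.09 ± 0.10, 0.13 ± 0.10 and 0.09 ± 0.07. In precursors they were 0.11, 0.16, 0.14 and 0.21 ± 0.08 (adjusted p of 0.817 for the last), in astrocytes 0.12, 0.17, -0.09 and 0.15, and in striatal projection neurons 0.04, 0.14, 0.08 (-0.0217 with the breeding line as a covariate) and 0.12. None of these passed the test.

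In the types where Mapt was under the median of the neuronal list, the estimates were wide. Microglia gave -0.11 ± 0.22, 0.52 ± 0.24 (adjusted p of 0.544), 0.31 ± 0.23 and 0.17 ± 0.18, pericytes 0.21 ± 0.40, 0.43 ± 0.44, -0.14 ± 0.45 and 0.31 ± 0.33, and fibroblasts -0.35 ± 0.39, 0.61 ± 0.45, 0.32 ± 0.49 and -0.04 ± 0.33. Several of these directions turned with the processing: with age as a covariate to -0.11 (knockout) and -0.0404 (all P301S) in microglia, with doublets kept to 0.0123 (P301S) in microglia, -0.0704 (knockout) in pericytes and 0.24 (P301S), -0.22 (knockout) and 0.32 (all P301S) in fibroblasts, and with the breeding line as a covariate to 0.26 (active IKKb) in pericytes and -0.11 (active IKKb) and 0.0351 (all P301S) in fibroblasts. Across the 16 subtypes the Mapt log2 fold change for all P301S mice lay between 0.06 and 0.31, with no call.

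**Figure D4:**
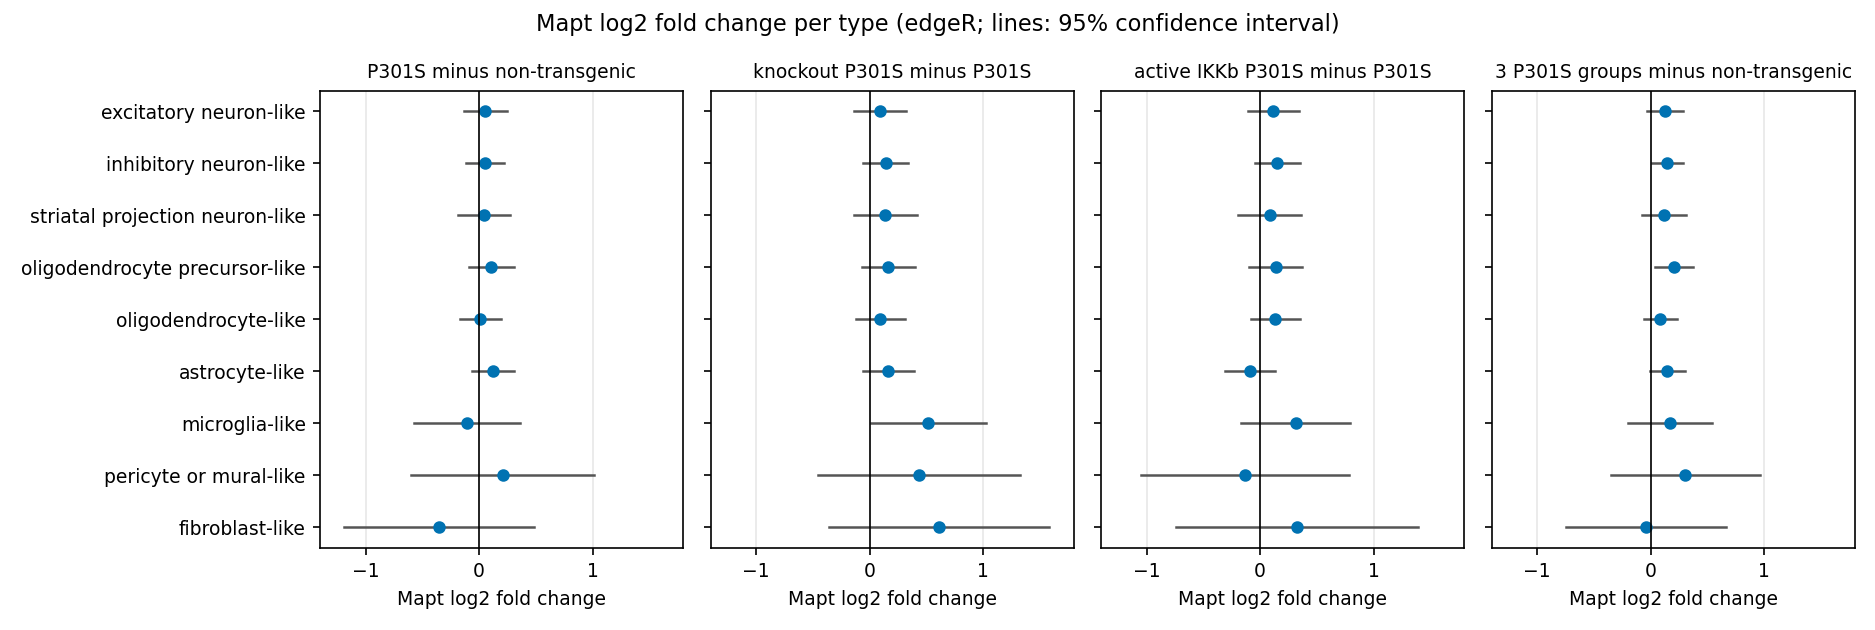
Log2 fold change of Mapt with its 95% interval in 9 broad types for the 4 comparisons (edgeR). The intervals are narrow in neurons and oligodendrocytes and wide in pericytes and fibroblasts, and 0 of 36 estimates were called.

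The lowest p among the members fell on Cdk5r1 in microglia. Non-transgenic mice had 30.3, 39.4, 41.8 and 38.2 CPM, P301S mice 15.5, 13.2 and 22.2, knockout mice 24.2 and 26.7, and active IKKb mice 17.1 and 17.99, on 6 to 33 UMIs per mouse. All 7 P301S mice were under all 4 non-transgenic mice, and knockout mice were above the other P301S mice. This gene and type were picked by their p from these same values, so that order adds no support. How many other genes have such an order was not measured. The log2 fold change was -1.06 ± 0.27 (-1.62 to -0.49, adjusted p of 0.149) for P301S and -0.93 ± 0.21 (-1.37 to -0.48, adjusted p of 0.0597) for all P301S mice, so neither passed the threshold. The second passed with the breeding line as a covariate (adjusted p of 0.0359) and without the low-count filter (0.0369). Without that filter, list genes were called in every comparison, against active IKKb alone with it.

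Neuronal marker genes in these microglia were measured beside it. The 7 excitatory markers summed to 256 to 347 CPM in non-transgenic, 226 to 299 in P301S, 345 and 346 in knockout and 228 and 247 in active IKKb mice, and the 7 inhibitory markers to 762 to 915, 599 to 857, 765 and 835, and 472 and 692. None of the 14 was at 0 in any group, and their part in the Cdk5r1 values was not tested.

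For knockout, the lowest p belonged to Fyn in fibroblasts (1.17 ± 0.27, adjusted p of 0.608). Knockout mice had 100.1 and 99.2 CPM against 37.7, 54.9 and 43.1 in P301S mice, on 4 to 44 UMIs per mouse. Non-transgenic mice (53.6 to 80.6 CPM) reached between these groups, and active IKKb mice had 41.9 and 63.2 CPM. The 7 choroid plexus and ependymal markers in this type summed to 1361 and 1591 CPM in knockout and to 289 to 3339 CPM in P301S mice, none at 0, and their part was not tested. For active IKKb it was Fyn in precursors (0.36 ± 0.12, adjusted p of 0.966), with 680 and 620 CPM against 512, 433 and 564 in P301S mice. Knockout mice had 595 and 710 CPM, overlapping the active IKKb mice, and non-transgenic mice 429 to 584 CPM. Oligodendrocyte markers in these precursors summed to 268 and 300 CPM in active IKKb, 240 to 322 CPM in P301S and 335 and 459 CPM in knockout mice, and their part was not tested.

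**Figure D5:**
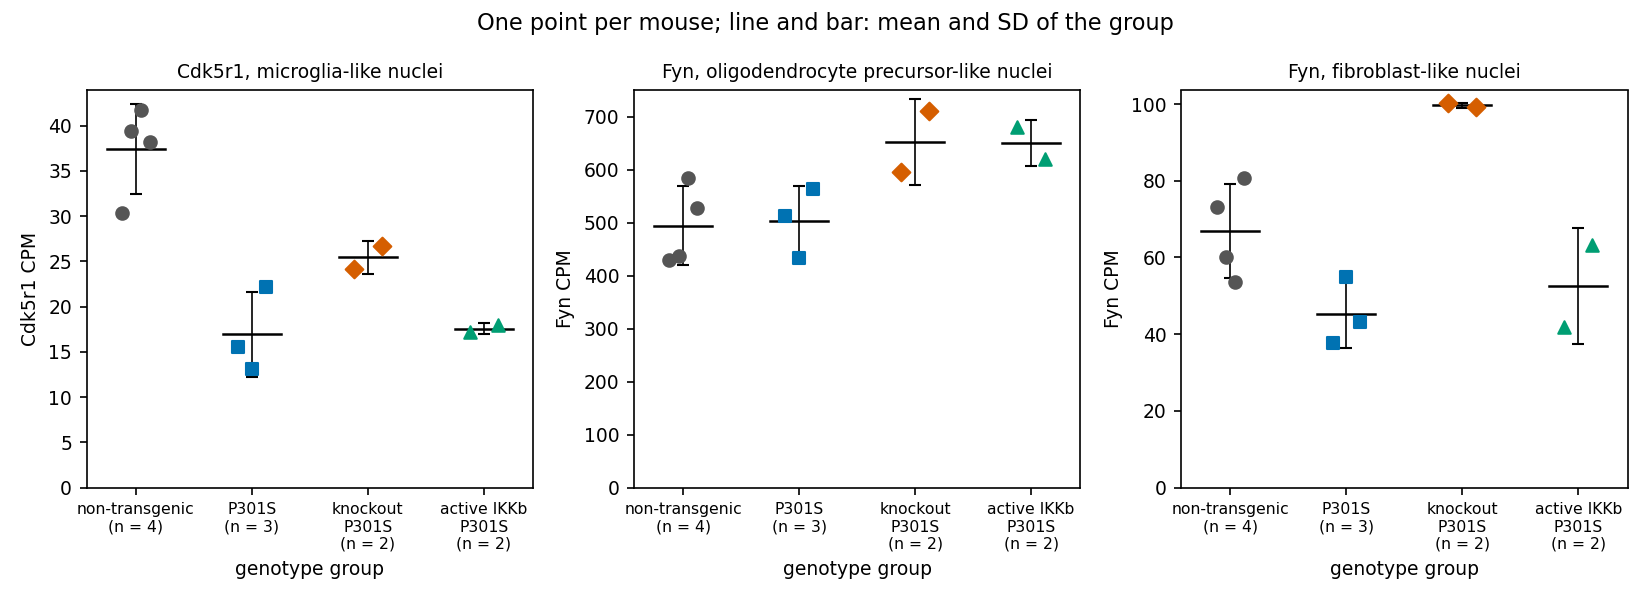
The member and type with the lowest p of each comparison, picked from these same values, as CPM per mouse by group with the group mean. Cdk5r1 in microglia is at 13.2 to 26.7 CPM in the 7 P301S mice and at 30.3 to 41.8 CPM in the 4 non-transgenic mice. The 2 knockout mice hold more Fyn in fibroblasts (100.1 and 99.2 CPM) than the 9 other mice.

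Other genes of tau biology were covered by 4 lists: 30 further tau kinases and activators, 24 phosphatases, 10 microtubule-associated relatives and 22 genes of tau chaperones, turnover and uptake. In the 9 broad types 0 of their genes were called for P301S, for knockout or for all P301S mice. In excitatory neurons under P301S 30 of 30, 24 of 24, 10 of 10 and 21 of 22 of them were tested, with 9, 11, 3 and 11 above 0 and medians of -0.0382, -0.0125, -0.0187 and 0.00167 (log2) beside -0.00294 over all genes. The lowest p of the phosphatases there was that of Ppp5c (-0.19, adjusted p of 0.999), and of the relatives that of Mtus1 (0.26, adjusted p of 0.999).

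Active IKKb gave 2 list calls, both in microglia, where 1.52% of all 9000 genes tested and 0 of the 10 members were called. For lists of 30, 24, 10 and 22 genes, 2 calls are near that share. Src, a tyrosine kinase of the same family as Fyn, rose by 1.23 ± 0.25 (adjusted p of 0.0115). It had 89.4 and 92.6 CPM in active IKKb mice, against 41.3, 26.3 and 44.3 in P301S mice and 20.2 to 53.8 in the others. Lrp1, a receptor that takes up tau, fell by 0.87 ± 0.18 on the log2 scale (adjusted p of 0.0119), with 211 and 213 CPM against 323, 454 and 365 in P301S mice and 297 to 512 in the others. In both genes the active IKKb mice stood apart from all 9 other mice. Both were picked by calls on these same values, so this adds no support. The call was lost for Src without P301S mouse 2 or active IKKb mouse 2, and for Lrp1 without P301S mouse 2 or either active IKKb mouse. Both active IKKb mice came from 1 breeding line, and with the line as a covariate neither gene passed (Src 0.92, adjusted p of 0.106, and Lrp1 -0.67, adjusted p of 0.0933). With doublets kept, Src did not pass either (1.11, adjusted p of 0.0863).

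Genes with the profile most like Mapt across 24 types and subtypes, among 13233 genes, were Gm11659 (Pearson r 0.97 of log2 mean CPM), Nfasc (0.93), Syt11 (0.91), Zfp239 (0.90) and Rundc3a (0.89). Gm11659 overlaps Mapt on the opposite strand, and since strand use in counting was not given in the sources used here, its UMIs may not be told apart from those of Mapt. Nfasc encodes neurofascin, an adhesion protein of myelinated axons. Ttbk1 (0.81) was the closest member, in place 25. The profiles most like Fyn were Nrxn2 (0.80), Timp4 (0.79), Cacng7 (0.77), Gm28750 (0.76) and Gm15418 (0.74). These correlations describe types that share libraries and depth.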

How the data were processed

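The authors prepared 3′ single-nuclei libraries from frozen cortex, aligned the reads with Cell Ranger (3.1.0, mm10, per the submitters' notes) counting unspliced RNA too, and deposited raw UMI counts per gene and barcode for each of 11 mice. Strand use in counting was not given in the sources used here. From these counts, nuclei holding between 300 and 8000 genes with a mitochondrial share up to 5% were kept, and doublets (8.42% of those passing) were called from simulated doublets and left out. Nuclei were clustered (Leiden, leidenalg 0.10.2, resolution 0.1, then 0.3 within neurons) without the members and list genes, and named from marker lists. The members, gene lists and markers were chosen with earlier results of these data known. UMIs were summed per mouse and type, since nuclei are not replicates, and tested with edgeR (4.0.16, TMM, filterByExpr, quasi-likelihood test, group as the only term, all 11 mice) in types with at least 20 nuclei in each mouse. P-values were adjusted by Benjamini-Hochberg and measure the spread between mice. CPM (counts per 1000000) scales a gene's UMIs to all UMIs of the type in a mouse. Excitatory and inhibitory effects were compared with limma (3.58.1) on log2 CPM with a prior count of 2. Levels across types carry no test, and 2 neighbours were called separate only where all 11 mice had 1 order. Fold changes are given for Mapt in every type and otherwise for calls and, per comparison, for the member with the lowest p; of the lists, for calls or the gene with the lowest p in excitatory neurons. The tests were checked on simulated counts. Depth was 72007219 to 93205362 UMIs per library, and levels on few UMIs carry counting error. Alternatives were DESeq2 (1.42.0) and its size factors, no filter, each mouse left out, replicate block, breeding line or age as covariate, doublets kept, resolution 0.2, nuclei of at least 1000 genes and removal of free neuronal RNA. Free RNA was taken off per mouse as the median ratio of the 20 neuronal genes times the gene's excitatory CPM, without rescaling to the UMIs left. UMIs per nucleus and free RNA from Rbfox3 alone were added after seeing the data. Promoter sequences and coordinates are from RefSeq and GENCODE on GRCm38.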

Additional observations from a re-analysis of the deposited data

Results flagged for a closer look

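Among the 4 non-transgenic mice, 9 of 100 member levels had 1 mouse far from the other 3 by Dixon's ratio of gap to range, where chance gives about 1 in 20. Non-transgenic mouse 4, the shallowest of its group, was the high one in 5 of them. Ttbk1 was at 100.5 CPM there in inhibitory neurons (others 67.4 to 70.3) and at 78.5 CPM in oligodendrocyte precursors (others 49.2 to 53.0). Mark2 was at 326 CPM in its striatal projection neurons (others 278 to 284), Cdk5r1 at 24.7 CPM in its excitatory neurons (others 23.0 to 23.3) and Cdk5 at 38.2 CPM in its fibroblasts (others 11.7 to 16.1). In non-transgenic mouse 2, Dyrk1a in inhibitory neurons (152 CPM, others 174 to 177) and Gsk3b in oligodendrocytes (200.1 CPM, others 213 to 214) were low. In non-transgenic mouse 3, Mark1 in microglia was low (25.1 CPM, others 48.0 to 52.0) and Dyrk1a in precursors was high (192 CPM, others 157 to 161).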

How the results depend on the processing

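The count of members called stayed at 0 under every alternative run except for all P301S mice against non-transgenic mice in broad types, where Cdk5r1 in microglia was called with the breeding line as covariate (1) and without a low-count filter (1). List genes called without a filter numbered 4 (P301S), 7 (knockout), 8 (active IKKb) and 2 (all P301S) in broad types and 1, 2, 1 and 5 in subtypes. The 4 and 2 calls for P301S and all P301S mice in broad types were of 1 gene, Fkbp5, in glial types. The share of all genes called without a filter is not given here, so these counts are not read. For active IKKb in broad types, list calls numbered 0 with the breeding line, 1 with doublets kept and 0 to 2 leaving out each mouse. Mapt kept its direction in excitatory and inhibitory neurons and precursors under all alternatives but 1, the P301S value in excitatory neurons, which ran from -0.00586 (without P301S mouse 3) to 0.121 leaving out each mouse.
The Mapt log2 fold change turned in fibroblasts to 0.24 (P301S), -0.22 (knockout) and 0.32 (all P301S) with doublets kept, and to -0.11 (active IKKb) and 0.0351 (all P301S) with the breeding line. In microglia it turned to 0.0123 (P301S, doublets kept), -0.11 (knockout, age) and -0.0404 (all P301S, age), in pericytes to -0.0704 (knockout, doublets kept) and 0.26 (active IKKb, breeding line) and in striatal projection neurons to -0.0217 (active IKKb, breeding line). The cause was not tested. Leaving out each mouse, Mapt ran in fibroblasts from -0.55 to 0.0221 (P301S), -0.92 to 0.68 (active IKKb) and -0.45 to 0.34 (all P301S), in microglia from -0.25 to 0.18 (P301S) and -0.0241 to 0.595 (active IKKb), in pericytes from -0.37 to 0.50 (P301S), -0.43 to 0.45 (active IKKb) and -0.0762 to 1.08 (knockout), in oligodendrocytes from -0.0469 to 0.0760 (P301S), and in striatal projection neurons from -0.0484 to 0.130 (P301S) and -0.0116 to 0.165 (active IKKb). The excitatory minus inhibitory difference ran from -0.0434 to 0.0513 (P301S), -0.0951 to 0.0166 (active IKKb) and -0.0403 to 0.0163 (all P301S).
Taking off free neuronal RNA moved the Mapt level to 225 CPM in astrocytes, 321 in precursors, 30.2 in endothelial nuclei, -71.4 in microglia, -25.7 in pericytes and -32.0 in fibroblasts, and with Rbfox3 alone to 60.8 in microglia. It moved 36 kinase levels by more than their SD over mice, 14 of them by over 1.5 times or to 0 or less: Mark1 in oligodendrocytes (14.9), astrocytes (30.3), endothelial nuclei (28.2) and microglia (-0.75), Cdk5r1 in oligodendrocytes (4.03), astrocytes (4.09) and precursors (8.40), Fyn in microglia (25.3) and fibroblasts (31.7), and Ttbk1 in astrocytes (8.71), endothelial nuclei (-6.00), fibroblasts (-0.96), microglia (-3.05) and pericytes (-4.51). Within that SD, Cdk5r1 also moved by over 1.5 times in endothelial nuclei (6.01), fibroblasts (3.01) and pericytes (2.94). Levels under 0 mean that more was taken off than was counted. What was left was not rescaled to the UMIs left, so this step can only lower a level. The part of each move that comes from this missing rescaling was not measured, and the counts of moved levels are not read as an amount of free RNA. With Rbfox3 alone only 1 level moved by more than its SD, Mapt in microglia, and the other 69 did not. Per nucleus, the ratio of Mapt to excitatory neurons moved to 0.211 in astrocytes, 0.0282 in microglia, 0.305 in precursors and 0.720 in oligodendrocytes, which turned its direction.
Mice of 1 breeding line that share a number in their titles showed correlations of their deviations from -0.0575 to 0.277 (median 0.0448, over 0.1 in 2 of 10 pairs). Those sharing it across lines had -0.250 to 0.109 (median 0.0161, over 0.1 in 1 of 12 pairs). In a group of 2 mice the deviations mirror each other, so this check cannot settle whether the number pairs mice. Between non-transgenic and P301S mice, pairs of 1 line had 0.0217 to 0.277 and pairs across lines -0.252 to -0.0155. With the number as a replicate block the count of members called was 0 and Mapt in excitatory neurons under P301S was 0.07. Doublets kept and resolution 0.2 were not run for subtypes. Groups of 2 and 3 mice limit all tests, and Gsk3a, Cdk5 and Cdk5r1 rest on few UMIs outside neurons and oligodendrocytes.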
